A study of Mus musculus with 24 samples.

Results

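The genes described here are 38 interferon-stimulated genes, a list of transcripts that type I interferon induces in many cell types. Each was located by its gene name in the array annotation, which gave 53 probes among the 39429 gene probes of the array: 24 of the genes had 1 probe and 14 had several. The scanning software flags a signal as well above background, and a probe was tested if at least 1 group had that flag on every array or missed it on 1. By that filter 30 of the 38 genes were tested, among 9444 tested genes in all, and 13 of the 30 were above background on every one of the 24 arrays. A gene that passes through the group where it is bright is favoured to differ, so counts over the 30 do not stand for the whole list.

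The samples were CD8+ T cells of the OT-I strain, C57BL/6-Tg(TcraTcrb) 1100Mjb/J, mice transgenic for a T cell receptor that recognises an ovalbumin peptide. These cells carried CD45.1, and the recipients and the rest of the graft CD45.2. Day 4 samples came from blood, liver, lung and small intestine of recipients with acute graft-versus-host disease, 5 arrays per site, and their control was the graft itself on day 0, 4 arrays. Recipients were Act-mOVA mice on C57Bl/6, line C57Bl/6-Tg(CAG-OVA)-916Jen/J, in which a CAG-promoter transgene supplies ovalbumin, and they had received 11 Gy of irradiation in 2 fractions followed by OT-I marrow and splenocytes. All mice were female, 8 to 16 weeks old. In every group the cells were taken with magnetic beads against CD45.1, so graft and day 4 cells share strain, receptor and isolation, and 300 pg of RNA per sample went through 2 rounds of amplification. Whether separate animals gave the samples is not stated in the sources used here, and a p-value then covers the variation among these samples, which may be technical. The 4 graft arrays were 1 slide and the day 4 arrays another 5 slides with 1 array of each site, so a slide effect on the graft and the change from day 0 to day 4 cannot be told apart.

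Type I interferons bind a receptor of the Ifnar1 and Ifnar2 chains, whose kinases Jak1 and Tyk2 phosphorylate Stat2 among their substrates. Stat2 and Irf9 are parts of the factor ISGF3, which binds the interferon-stimulated response element in the promoters of its targets. The targets include sensors of viral RNA (Ifih1, Ddx58, Dhx58), antiviral effectors (the Ifit, Oas, Mx and Ifitm families, Rsad2, Bst2), the ubiquitin-like protein Isg15 and its protease Usp18, which also restrains the receptor, and the pathway's own factors Irf7, Irf9 and Stat2. In CD8+ T cells, interferon acts as an additional signal during priming, and many of these genes also respond to interferon gamma.

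The core of the response element was found in the promoters of several of these genes. It was searched as GAAANNGAAA, in both strands and with overlapping matches allowed, in the 250 bases before each start site of RefSeq genes (GRCm38.p6). Windows were found for 29 of the 38 genes, and 10 of the 29 (34.5%) held at least 1 core, against 936 of 27025 genes with a window (3.46%). The gamma-activated site, TTCNNNGAA, was held by 6 of the 29 (20.7%), against 8.13% of all genes. Of the genes with a window, the core was in 5 of 8 that were called lower at day 4, in 0 of 3 called higher, in 2 of 12 tested and not called, and in 3 of 6 not tested. A match describes these letters and is not evidence of binding. The split by call was not tested. Ifitm2 and Oas1a, not called, and Ifit1, Oas1g and Oas3, not tested, also held a core. Irf7, Oasl2 and Trim25, called lower, had a window without one. As examples, the 5 windows with a core among the genes called lower are shown, each with 30 bases or fewer on either side, in the direction of the gene, on GRCm38.p6. Capitals mark the cores, overlapping cores run together, and TTTC at both ends of a core means that it lies on the opposite strand.
Isg15, chr4:156200845-156200926, minus strand: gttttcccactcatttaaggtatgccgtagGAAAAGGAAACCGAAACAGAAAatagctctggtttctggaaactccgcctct
Bst2, chr8:71537557-71537632, minus strand: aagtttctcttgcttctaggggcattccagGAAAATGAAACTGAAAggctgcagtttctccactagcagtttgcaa
Ifit3, chr19:34583343-34583446, plus strand: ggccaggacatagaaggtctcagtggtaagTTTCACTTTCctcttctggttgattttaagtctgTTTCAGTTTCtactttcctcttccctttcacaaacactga
Rsad2, chr12:26456533-26456602, minus strand: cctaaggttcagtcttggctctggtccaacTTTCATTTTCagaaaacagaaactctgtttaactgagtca
Stat2, chr10:128270248-128270315, plus strand: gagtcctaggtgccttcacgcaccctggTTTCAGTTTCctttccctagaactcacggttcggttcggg
Isg15 held 3 overlapping cores, Bst2 2 overlapping cores and Ifit3 2 separate ones, while Rsad2 and Stat2 held 1 each. The Isg15 run ends 57 bases before the start site and the Stat2 core begins 222 bases before it.

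After 4 days the list divided. Compared with the graft, 10 of the 30 tested genes were lower on day 4 and 5 were higher, by limma at an adjusted p below 0.05, and 15 were not called. The lower genes were Oasl2, Bst2, Ifit3, Trim25, Usp18, Stat2, Isg15, Mx2, Rsad2 and Irf7, and the higher ones Ifih1, Dhx58, Xaf1, Ifi35 and Parp9. Most of these calls are of genes that the filter favoured. Oasl2, Ifit3, Usp18, Mx2, Rsad2 and Irf7 passed it only through the graft, and Ifih1, Dhx58 and Xaf1 only through day 4 groups. Over all tested genes 19.1% were called lower and 34.3% higher, and the median log2 difference was -0.19 over the 30 members and 0.23 over all genes. The balance over all genes depends on the scaling: with arrays centred on the median of the probes detected throughout, the median over all genes was -0.32, 38.2% of genes were lower and 21.9% higher, and the members divided into 15 lower and 3 higher. Under none of the 6 scalings run did a called member change direction. Values here are log2 signals relative to the 75th percentile of the gene probes on the same array, with 0 at that percentile, and they compare 1 gene across samples, not 1 gene with another.

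**Figure D1:**
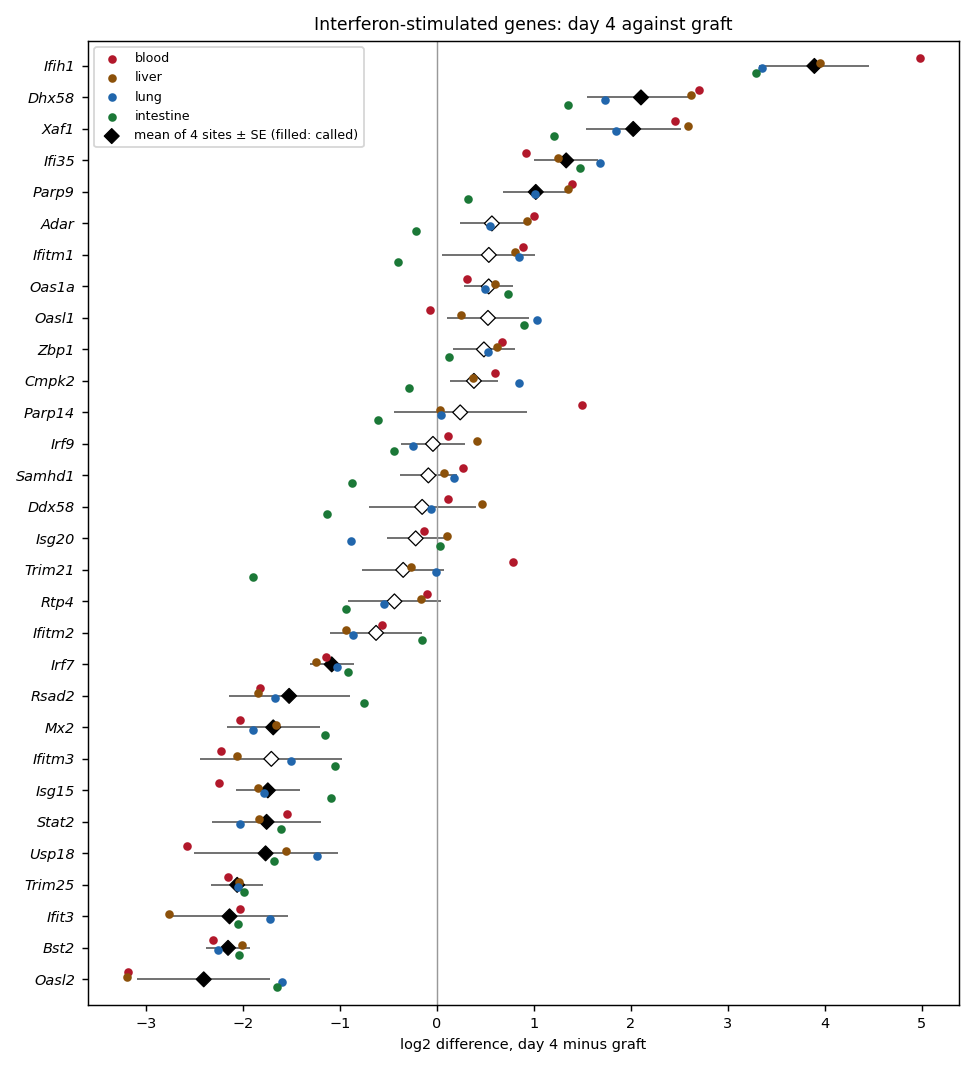
Log2 difference from the graft for each of the 30 tested genes (rows). Diamonds are the mean of the 4 sites with its standard error, filled where the gene was called; coloured points are the single sites. Points of Ifih1, and those of Oasl2 and Mx2 in blood and of Oasl2 in liver, are set against or rest on signals not above background and stand for bounds only. The 10 called lower lie at negative and the 5 called higher at positive values.

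Markers of other cell types moved with the same comparison, in which 34.3% of all genes were called higher and 19.1% lower. CD8 T cell markers were present throughout, with 9 of 9 measured above background in every group, and 4 of the 9 tested were higher at day 4 and 0 lower. Of 8 tested NK cell markers 2 were higher and 4 lower. The B cell list, 11 tested, had 10 lower at day 4, and its summed signal, on the same log2 scale, ran from 2.19 to 6.21 over the day 4 arrays and from 7.92 to 8.33 in the graft. Ms4a1 was above background on 0 day 4 arrays and on all 4 graft arrays, and Pax5 on 0 of 24 arrays. Of 14 B cell genes, 10 were above background on all 4 graft arrays and 2 on all arrays of each day 4 site. For the neutrophil and monocyte list these counts were 11 and 2, and for the dendritic cell list 11 and 4 to 6. A gene tested through the graft alone is favoured to be called lower, so the counts of lower markers are partly set by the filter. Of 13 tested neutrophil and monocyte markers 11 were lower at day 4, with sums of 6.26 to 7.92 on day 4 and 8.82 to 9.24 in the graft. Of 11 tested dendritic cell markers 8 were lower, with sums of 5.13 to 8.40 on day 4 and 8.14 to 8.27 in the graft, and that list holds Bst2. Macrophage markers had 4 of 6 lower, with sums of 2.57 to 7.11 on day 4 and 4.05 to 5.62 in the graft. Their part in the lower members was not tested, and in bulk RNA fewer cells of a type and less RNA per cell cannot be told apart.

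**Figure D2:**
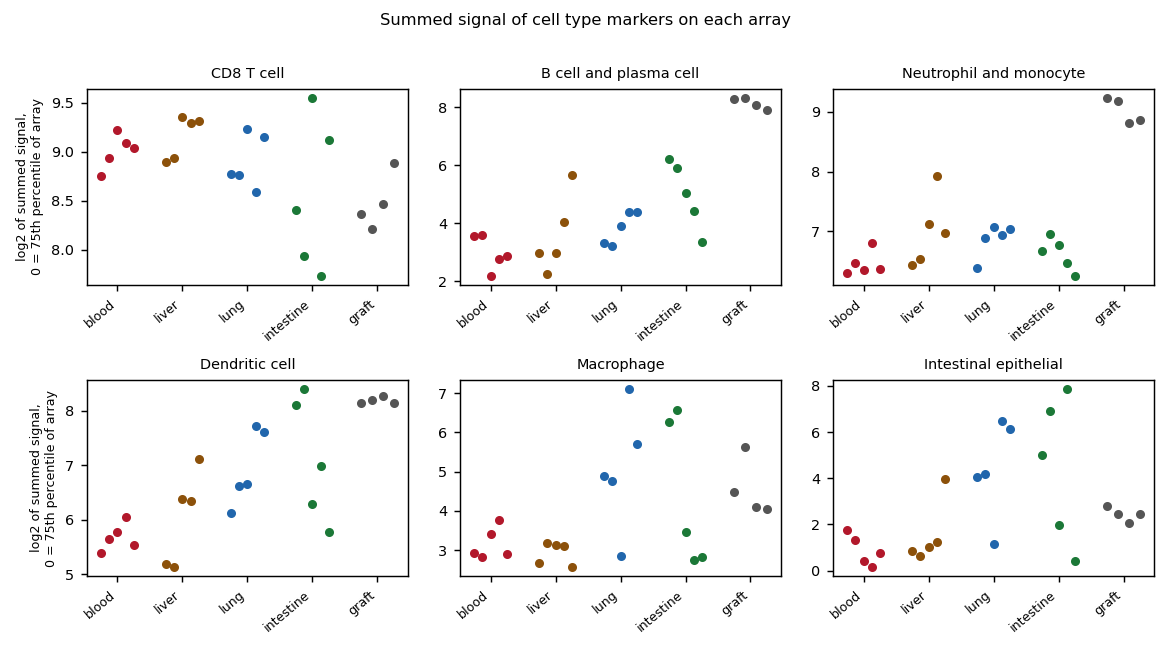
Log2 of the summed signal of each marker list on each array, relative to the array's 75th percentile, by site and graft; points are arrays. CD8 T cell markers are high on every array, while B cell and neutrophil markers are highest in the graft and intestine 1 and intestine 2 stand out among day 4 arrays for dendritic cell and B cell markers.

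Among the pathway's own factors, Irf7, the transcription factor that amplifies interferon production, ran from -1.09 to 0.45 on the 20 day 4 arrays (median -0.56), against 0.49, 0.58, 0.72 and 0.49 in the graft. Every day 4 array lay below every graft array. The log2 difference was -1.08 (SE 0.23, adjusted p = 0.000357), although its signal was above background on 10 of the 20 day 4 arrays. Stat2, a subunit of ISGF3, ran from -2.16 to 2.01 on the 20 day 4 arrays (median -0.0062), against 1.32, 1.53, 2.10 and 1.46 in the graft. Lung 2 reached into the graft range, and the other 19 day 4 arrays lay below it, with a difference of -1.76 (SE 0.56, adjusted p = 0.0119). Irf9, the DNA-binding part of ISGF3, was detected on all 24 arrays and was not called (log2 difference -0.041, SE 0.33, adjusted p = 0.925). Usp18 ran from -3.79 to 1.40 on the 20 day 4 arrays (median -0.75), against 0.32, 0.10, 2.08 and 0.43 in the graft, and the groups overlapped on 5 day 4 arrays. It was above background on 10 of the 20 day 4 arrays. Its call (log2 difference -1.77, SE 0.74, adjusted p = 0.0493) ended in 22 of 38 alternative analyses, the most among the 15 called genes. Isg15 ran from 0.50 to 3.21 on the 20 day 4 arrays (median 1.26), against 2.30, 2.79, 3.76 and 3.68 in the graft. The 2 day 4 arrays above the lowest graft array were intestine 1 and intestine 2, and the difference was -1.74 (SE 0.33, adjusted p = 0.000126).

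Of the tested antiviral effectors named above, Bst2, Ifit3, Oasl2, Mx2 and Rsad2 were called lower at day 4. Ifitm1, Ifitm2, Ifitm3, Oas1a and Oasl1 were not called. Over all genes 19.1% were called lower and 34.3% higher. Ifit3, Oasl2, Mx2 and Rsad2 passed the filter only through the graft, which favours a lower call. Bst2, which tethers budding virus to the cell surface, ran from 0.63 to 2.24 on the 20 day 4 arrays (median 1.43), against 3.49, 3.45, 3.82 and 3.98 in the graft. No day 4 array reached the graft range, and the difference was -2.15 (SE 0.23, adjusted p = 8.11e-08). Ifit3, which binds with other Ifit proteins to viral RNA, ran from -3.16 to 1.18 on the 20 day 4 arrays (median -0.77), against 0.94, 0.82, 2.44 and 1.16 in the graft, with 17 day 4 arrays below every graft array and a difference of -2.14 (SE 0.60, adjusted p = 0.00474). Its signal was above background on 10 of the 20 day 4 arrays. Oasl2, a member of the oligoadenylate synthetase family, spread widely, with -3.79 to 1.60 on the 20 day 4 arrays (median -2.59), against -0.84, 0.36, 0.91 and 0.90 in the graft. It was above background on 3 day 4 arrays and on 3 of 4 graft arrays, and its difference was -2.40 (SE 0.68, adjusted p = 0.00539). In blood and in liver no array was above background, so Oasl2 there was at least 2.33-fold and 2.36-fold lower than in the graft, by bounds that use the lowest signal detected on each array. Mx2, a dynamin-like GTPase, had -3.59 to -0.32 on the 20 day 4 arrays (median -2.04), against -0.19, -0.82, 0.38 and -0.45 in the graft, and was above background on 4 day 4 and 3 graft arrays. Its difference was -1.69 (SE 0.48, adjusted p = 0.00531), and in blood, where no array was above background, it was at least 1.54-fold lower. Rsad2, the radical SAM enzyme viperin, had -2.91 to 1.87 on the 20 day 4 arrays (median -1.20), against -0.36, 1.18, 0.64 and -0.046 in the graft. It was above background on 8 day 4 arrays and on 4 graft arrays. The difference of -1.52 (SE 0.62, adjusted p = 0.0439) was lost in 13 of 38 alternatives.

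Trim25, a ubiquitin ligase of RNA sensing, had 4.87 to 6.63 on the 20 day 4 arrays (median 5.96), against 7.62, 7.94, 8.34 and 7.82 in the graft, without overlap, and a difference of -2.06 (SE 0.27, adjusted p = 1.42e-06). That value belongs to the brighter of its 2 tested probes, which ends in a run of GT repeats and spans chr11:88874956-88881181 on mm9. The other, at chr11:88881521-88881580, had a log2 difference of 0.85 (SE 0.28, adjusted p = 0.0136) in a fit over the 11271 tested probes, so the 2 probes differed in direction. With the mean of both probes the gene's difference was -0.60 (adjusted p = 0.00948). Which of the 2 probes stands better for the gene was not tested.

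Without overlap between the groups, 3 members were lower (Irf7, Bst2 and, by its brighter probe only, Trim25), against 6.25% of all genes. In the other direction 1 was higher (Ifih1), against 10.9%. The filter favoured 2 of these: Irf7 passed it only through the graft and Ifih1 only through day 4 groups. Ifih1 was above background on 17 of 20 day 4 arrays and 0 of 4 graft arrays. Part of its separation is therefore between signals not above background. On mm9, the Irf7 probe spans chr7:148450664-148451014, the Bst2 probe chr8:74058603-74058662 and the tested Ifih1 probe chr2:62435507-62435566. A second Ifih1 probe was above background on 0 of 24 arrays.

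Of the 3 helicases that sense viral RNA or modulate its sensing, Ifih1 and Dhx58 rose and Ddx58 was not called. Ifih1 encodes MDA5, a sensor of long double-stranded RNA. Its probe ran from -2.61 to 2.87 on the 20 day 4 arrays (median 0.97), against -2.83, -2.94, -3.43 and -2.80 in the graft, where none of the 4 arrays was above background. On day 4 it was above background on 17 of 20 arrays, which makes the increase at least 3.03-fold (adjusted p = 5.67e-06). For the single sites the bounds were at least 6.44-fold (blood), 3.16-fold (liver), 2.09-fold (lung) and 1.99-fold (intestine). Dhx58 encodes LGP2, which modulates MDA5 and RIG-I. It ran from -2.37 to 1.49 on the 20 day 4 arrays (median 0.66), against -2.42, -2.69, -0.13 and -2.50 in the graft, and was above background on 13 day 4 arrays and on 1 graft array, graft 3. The difference was 2.10 (SE 0.56, adjusted p = 0.00323). Ddx58, which encodes RIG-I itself, was detected on 23 arrays and was not called (log2 difference -0.15, SE 0.55, adjusted p = 0.826).

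Xaf1, a pro-apoptotic antagonist of XIAP, had -2.46 to 1.49 on the 20 day 4 arrays (median 0.061), against -2.53, -2.71, -0.88 and -2.56 in the graft. It was above background on 12 day 4 arrays and on graft 3 alone in the graft, with a difference of 2.02 (SE 0.49, adjusted p = 0.00146). Ifi35 had 3.10 to 5.54 on the 20 day 4 arrays (median 4.27), against 2.64, 2.94, 4.09 and 2.39 in the graft, with 14 day 4 arrays above every graft array and a difference of 1.33 (SE 0.33, adjusted p = 0.00196). Parp9, an ADP-ribosyltransferase that works with the ligase Dtx3l, had 0.63 to 3.23 on the 20 day 4 arrays (median 2.40), against 1.01, 0.88, 1.76 and 1.19 in the graft, and a difference of 1.02 (SE 0.34, adjusted p = 0.0141). Its second tested probe gave -0.33 (SE 0.36, adjusted p = 0.44), and the call ended in 6 of 39 alternatives, among them centring on detected probes and the mean of both probes. The Ifi35 call ended in 1, centring on the median of detected probes.

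**Figure D3:**
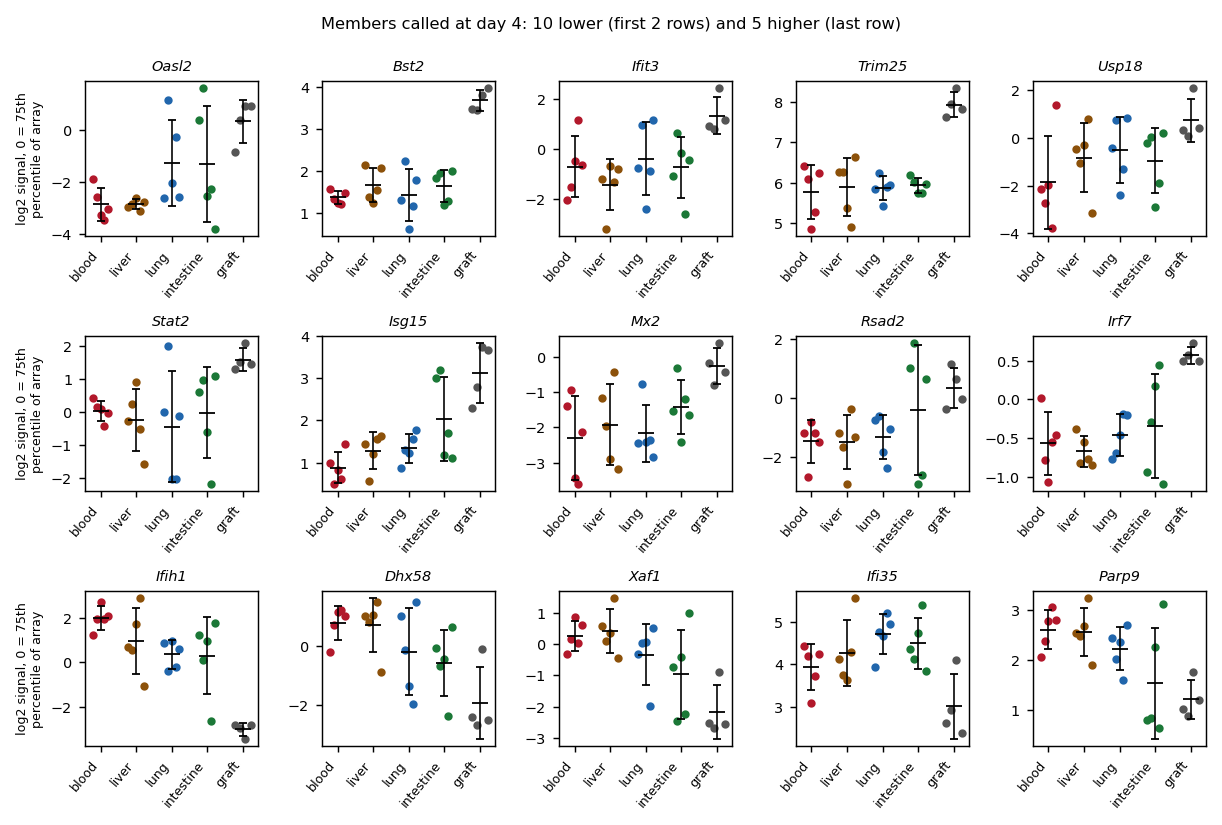
Log2 signal on every array for the 15 genes called at day 4 (panels), by site and graft; points are arrays and bars the mean ± SD. Bst2, Trim25 and Irf7 have every day 4 point below the graft, and Ifih1 every day 4 point above it.

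The other 15 tested members were not called, with log2 differences between -1.71 and 0.57. The Ifitm proteins, which block virus entry at membranes, illustrate the range. Ifitm3 ran from -1.67 to 3.76 on the 20 day 4 arrays (median 0.26), against 2.16, 2.10, 2.00 and 2.38 in the graft. On 17 day 4 arrays it lay below every graft array and on 3 (lung 2, intestine 1 and intestine 2) above every one, with a difference of -1.71 (SE 0.73, adjusted p = 0.0532). For Ifitm2 the difference was -0.63 (SE 0.47, adjusted p = 0.266). Ifitm1 had a difference of 0.54 (SE 0.48, adjusted p = 0.354), and its second probe, placed on another chromosome in the annotation, gave 0.46 (SE 0.52, adjusted p = 0.458), and which copy that probe reads is uncertain.

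Oas1a, Oasl1 and Zbp1, sensors or synthetases of the nucleic acid response, had differences of 0.53 (adjusted p = 0.0753), 0.53 (adjusted p = 0.294) and 0.48 (adjusted p = 0.209). The second tested probe of Oas1a, however, had a difference of -0.080 (SE 0.17, adjusted p = 0.703). That of Zbp1 was called lower, with a difference of -0.78 (SE 0.22, adjusted p = 0.00459). The enzymes Adar, which edits double-stranded RNA, Samhd1, which degrades deoxynucleotides, Isg20, an exonuclease, and Cmpk2, a mitochondrial nucleotide kinase, had 0.57 (adjusted p = 0.146), -0.088 (adjusted p = 0.811), -0.22 (adjusted p = 0.537) and 0.38 (adjusted p = 0.189). The second tested probe of Adar was called higher, with a difference of 0.95 (SE 0.34, adjusted p = 0.0216). Those of Samhd1 and Isg20 were not called, with -0.51 (adjusted p = 0.101) and -0.064 (adjusted p = 0.842). Parp14, Rtp4 and the antibody receptor Trim21 had 0.24 (adjusted p = 0.783), -0.44 (adjusted p = 0.45) and -0.35 (adjusted p = 0.5).

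The remaining 8 members were too dim to test. Ifit1, Mx1, Oas1g, Oas3 and Eif2ak2 (the kinase PKR) were above background on 0 of 24 arrays, Ifit2 and Oas2 on 2 and Ifi44 on 4, 2 of them graft arrays. Their dimness limits what these arrays show and does not show that the genes were silent.

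By site, calls against the graft were 5 higher and 10 lower in blood (35.3% and 21.2% of all genes), 5 and 9 in liver (34.4% and 16%), 5 and 6 in lung (25.8% and 11.6%) and 2 and 6 in intestine (22.1% and 12.8%). These comparisons share the 4 graft arrays. Bst2, Trim25, Irf7 and Isg15 were called lower at every site. Bst2 differed by -2.31 for blood, -2.01 for liver, -2.26 for lung and -2.04 for intestine. Trim25 differed by -2.15, -2.04, -2.05 and -1.99 in the same order, by its brighter probe. The second Trim25 probe lay above the graft mean at every site (1.18, 0.96, 0.74 and 0.52 in that order). Ifih1 was called higher at every site. Oasl2 was called lower by limma in blood (adjusted p = 0.00295) and liver (adjusted p = 0.00327), where its folds are the bounds given above. The graft mean in those bounds includes an array not above background. Oasl2 was not called in lung (log2 difference -1.60, adjusted p = 0.14) or intestine (log2 difference -1.65, adjusted p = 0.132). No pair of sites differed for Oasl2 by its own test. Its values were -2.62, 1.16, -2.02, -0.27 and -2.56 in lung and 0.40, 1.60, -2.53, -2.25 and -3.79 in intestine, against -1.89, -2.57, -3.29, -3.47 and -3.02 in blood.

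**Figure D4:**
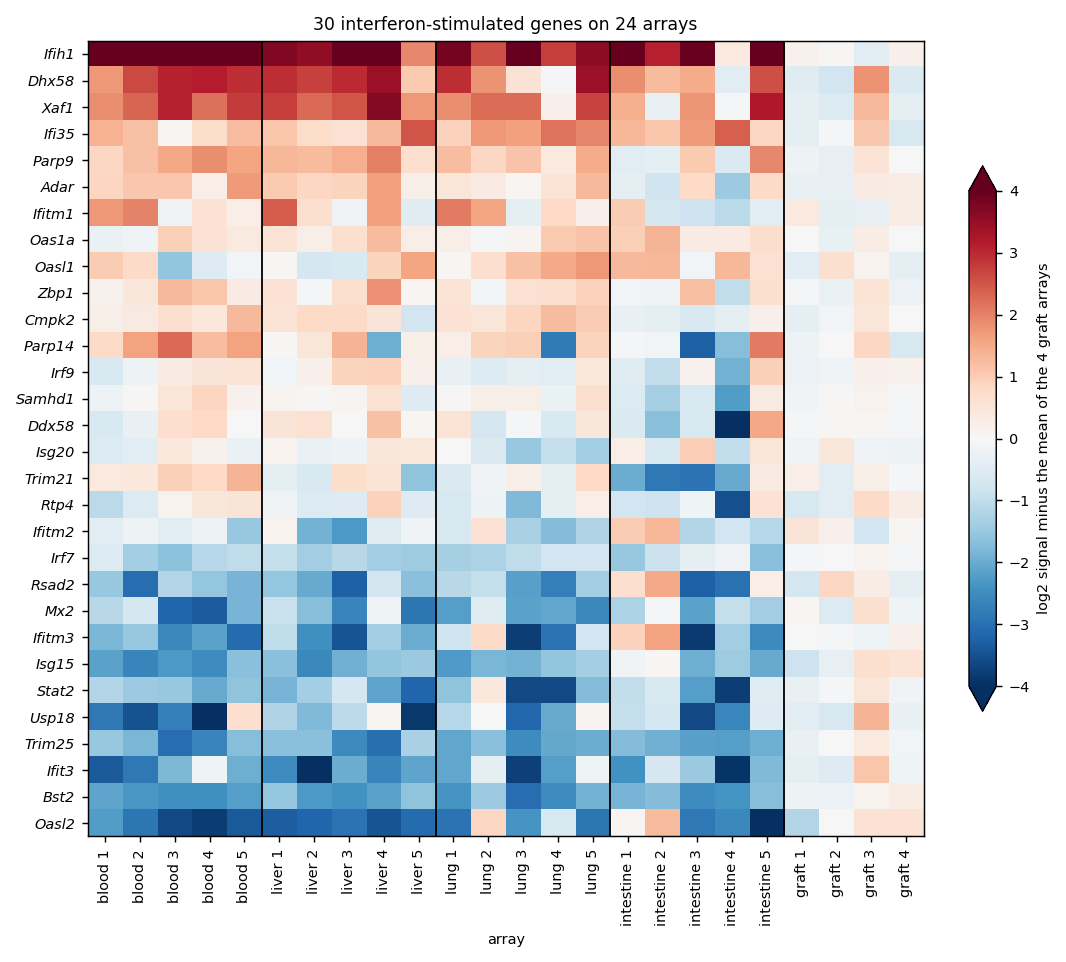
Each of the 30 tested genes (rows) on each of the 24 arrays (columns), as log2 signal minus the mean of the 4 graft arrays, with the colour scale ending at -4 and 4. Intestine 1, intestine 2 and lung 2 depart from the other day 4 columns at Oasl2 and Ifitm3, and intestine 4 is low across many rows.

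Single arrays differed in how many members lay outside the graft range. The 10 members called lower were chosen on these same arrays, and most passed the filter only through the graft. Values below the graft were thus favoured in advance, and the counts only describe how arrays differ. All 10 lay below every graft array on 11 of the 20 arrays, among them blood 1, blood 2 and blood 3. Lung 2 had 5, intestine 2 had 6 and intestine 1 had 7. The same count over all genes called lower was not made. Intestine 2 was the highest of the day 4 arrays for 7 of the 30 members, against 2.4% of all genes. Intestine 4 was the lowest for 11 of 30, but also for 26.9% of all genes. Within the graft, graft 3 was the highest array for 20 of 30 members, against 28.8% of all genes. Without graft 3 the day 4 comparison called 5 higher and 8 lower, beside 31.7% higher and 15.4% lower over all genes in that fit.

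The sums of such markers also differed among the day 4 arrays. Intestine 1 and intestine 2 had macrophage sums of 6.27 and 6.57, dendritic cell sums of 8.10 and 8.40 and B cell sums of 6.21 and 5.89, whereas the other 3 intestine arrays ran from 2.74 to 3.47, from 5.77 to 6.99 and from 3.36 to 5.05, and blood from 2.84 to 3.77, from 5.38 to 6.06 and from 2.19 to 3.60. Lung 4 and lung 5 also had macrophage sums of 7.11 and 5.70 and dendritic cell sums of 7.72 and 7.62, whereas lung 2, high for Oasl2 and Ifitm3, had 4.78 and 6.62. Oasl2 was at -0.27 on lung 4, at -2.56 on lung 5 and at 1.16 on lung 2. Intestinal epithelial markers summed to 5.01, 6.92 and 7.87 on intestine 1, intestine 2 and intestine 4, against 1.98 and 0.44 on intestine 3 and intestine 5, and ran from 1.17 to 6.46 in lung. Lung epithelial markers summed to 2.10 to 7.42 in lung, against 0.65 to 1.98 in blood. The 7.42 was on lung 2, which also had the highest endothelial sum of all arrays (4.29). On intestine 1, intestine 2 and intestine 4 CD8 T cell markers summed to 8.41, 7.93 and 7.73, against 9.55 and 9.12 on the other 2 intestine arrays. Adar and Parp9 had their 3 lowest intestine values on intestine 1, intestine 2 and intestine 4. Trim21 and Cmpk2 did not, being lowest on intestine 3 (-2.56 and -0.29). Samhd1 was also lower on intestine 3 (4.14) than on intestine 1 (4.23). The part of these cells in the differences between sites was not tested.

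Between sites, 5 members were called in intestine against blood, where 1.78% of all genes were higher and 11.5% lower. Trim21 had -1.59, -2.47, -2.56, -1.62 and 0.75 in intestine, against 0.77, 0.81, 1.36, 1.20 and 1.75 in blood. The difference was -2.68 (SE 0.49, adjusted p = 0.0069), and the highest intestine value (0.75) lay just below the lowest blood value (0.77). Trim21 was above background on 1 of 5 intestine arrays and on 5 of 5 blood arrays. Its intestine values, and so the size of the difference, rest mostly on signals not above background. Within the 5 slides the difference ran from -3.92 to -1.01. Samhd1 had 4.23, 3.45, 4.14, 2.54 and 5.14 in intestine, against 4.57, 4.83, 5.26, 5.64 and 4.93 in blood, a difference of -1.15 (SE 0.34, adjusted p = 0.0325). Its second tested probe, above background on all 24 arrays, was not called (log2 difference -0.47, SE 0.30, adjusted p = 0.248). Adar had 1.82, 1.37, 2.96, 0.74 and 2.94 in intestine, against 3.04, 3.26, 3.26, 2.44 and 3.89 in blood (log2 difference -1.21, SE 0.38, adjusted p = 0.0394), and its second probe was called lower as well, with a difference of -1.86 (SE 0.39, adjusted p = 0.0114). Cmpk2 had 0.011, -0.035, -0.29, -0.069 and 0.53 in intestine, against 0.55, 0.69, 0.96, 0.74 and 1.62 in blood (log2 difference -0.88, SE 0.28, adjusted p = 0.0425). It was above background on 2 of the 5 intestine arrays. Isg15 was the 1 member called higher, with 3.00, 3.21, 1.18, 1.71 and 1.11 in intestine, against 0.99, 0.50, 0.83, 0.62 and 1.45 in blood (log2 difference 1.16, SE 0.38, adjusted p = 0.0465), and intestine 1 and intestine 2 had the highest values. Within slides the Isg15 difference ran from -0.34 to 2.71, that of Samhd1 from -3.10 to 0.21, that of Adar from -1.89 to -0.30 and that of Cmpk2 from -1.25 to -0.54.

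These calls changed with the arrays used. Without intestine 1 and intestine 2, an analysis chosen after the values were seen, 0 members and 0% of all genes were called by limma, 7 had an unadjusted p below 0.05 and the Trim21 difference had an adjusted p of 0.082, whereas Trim21 held in the other 39 alternatives run. With slide as a fixed term among the day 4 arrays, Trim21 was called (adjusted p = 0.0271) and the other 4 members called above were not (adjusted p = 0.0613 for Adar, 0.0646 for Samhd1, 0.0666 for Isg15 and 0.0756 for Cmpk2). Ifitm1, not called without that term (adjusted p = 0.109), was then called lower, with a log2 difference of -1.29 (adjusted p = 0.0389), and its differences within slides ran from -2.69 to -0.67. Adar, Samhd1, Cmpk2 and Isg15 lost their calls in 14 to 25 of their alternatives. Without intestine 5, calls were more frequent over all genes as well as among the members. In intestine against blood 2 members were higher and 10 lower, beside 8.48% and 22.5% of all genes. In intestine against liver 0 were higher and 7 lower (2.35% and 11.9% of all genes), and in intestine against lung 0 and 3 (0.646% and 1.25%). With all arrays, in the other 5 pairs of sites 0 of 30 members were called by limma, with 0% higher and 0% lower over all genes in liver against blood, 0.773% and 0.678% in lung against blood, 0.36% and 0.0953% in lung against liver, 0% and 0% in intestine against liver, and 0.116% and 0.265% in intestine against lung. At an unadjusted p below 0.05 the counts of members were 1 in liver against blood, 3 in lung against blood, 1 in lung against liver, 9 in intestine against liver and 5 in intestine against lung. With array weights 14 members were called in intestine against liver, 6 higher and 8 lower, where 7.26% of all genes were higher and 26.8% lower. In intestine against lung that fit called 3 higher and 4 lower (3.3% and 4.45% of all genes), in lung against blood 0 and 1 (2.95% and 7.18%), in lung against liver 0 and 1 (2.26% and 4.75%) and in liver against blood 0 and 0 (0.0741% and 0.0424%).

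**Figure D5:**
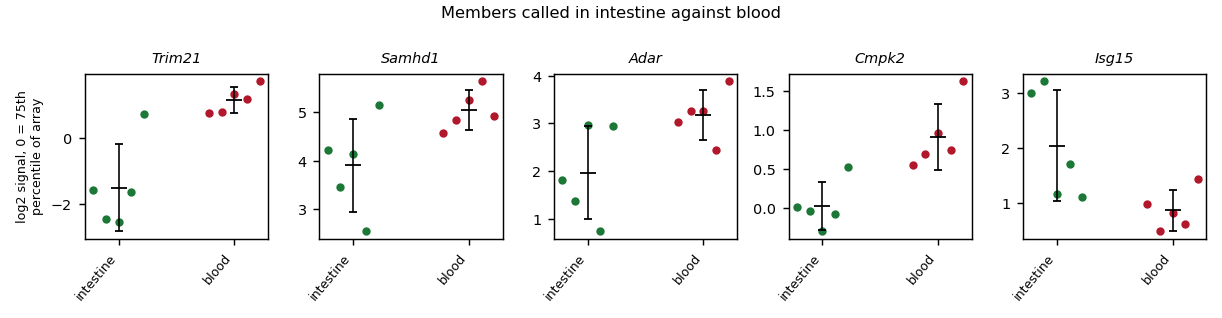
Log2 signal on each intestine and blood array for the 5 members called between these sites; points are arrays and bars the mean ± SD. Trim21, Samhd1, Adar and Cmpk2 are lower in intestine and Isg15 higher, where intestine 1 and intestine 2 stand above the rest.

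Of 53 other genes of the interferon pathway, 29 were tested. On day 4, 13 of the 29 were higher and 7 lower than in the graft, beside 34.3% higher and 19.1% lower over all genes. The receptor chains Ifnar1 and Ifnar2 rose by 1.04 (SE 0.36, adjusted p = 0.0193) and 1.67 (SE 0.42, adjusted p = 0.00206), Jak1 had a difference of -0.12 (SE 0.50, adjusted p = 0.849), and Tyk2, above background on 2 arrays, was not tested. The adaptor Myd88 rose by 1.15 (SE 0.24, adjusted p = 0.000347), the phosphatases Ptpn11 and Ptpn2 by 1.14 (adjusted p = 0.000391) and 1.09 (adjusted p = 0.000443), and Stat3 by 1.28 (adjusted p = 0.00127). The adaptor Ticam1 had a difference of -0.77 (SE 0.19, adjusted p = 0.00177). Among the ligands, Ifna11, of a family of near-identical copies, passed the filter and was called lower, with a difference of -0.76 (SE 0.21, adjusted p = 0.00485). The rest, Ifnb1 included, were above background on 0 to 2 arrays or had no probe. Between intestine and blood, 0 pathway genes were higher and 6 lower (1.78% and 11.5% of all genes), led by the phosphatase Ptpn6 (log2 difference -1.55, adjusted p = 0.0069), the deubiquitinase Cyld (log2 difference -2.04, adjusted p = 0.0069), Myd88 (log2 difference -1.32, adjusted p = 0.0111) and the adaptor Mavs (log2 difference -1.03, adjusted p = 0.0239).

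A further 79 interferon-stimulated genes outside the list gave 54 tested, of which 10 were higher and 13 lower on day 4, beside the same 34.3% and 19.1% over all genes. Lap3, an aminopeptidase, rose by 3.91 (SE 0.30, adjusted p = 6.97e-10) and was above background on 1 graft array. Mlkl, the executor of necroptosis, was above background on 18 day 4 and 0 graft arrays, at least 2.96-fold higher. Ifitm6 was above background on 0 day 4 and 4 graft arrays, at least 4.96-fold lower. Slfn8 differed by -2.05 (SE 0.22, adjusted p = 9.66e-08), Ms4a4c by -1.54 (adjusted p = 3.29e-06) and Sp110 by -1.28 (adjusted p = 1.44e-05), all detected on 23 or 24 arrays. Between intestine and blood 1 of the 54 was higher and 7 lower, beside the same shares, led by Pml (log2 difference -2.13, adjusted p = 0.0107), Aida (log2 difference -1.07, adjusted p = 0.0118), Ms4a4b (log2 difference -1.16, adjusted p = 0.0262) and Daxx (log2 difference -0.85, adjusted p = 0.0305). The list was drawn up with earlier results of these data known.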

How the data were processed

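RNA of 24 samples was measured on 1-colour Agilent arrays. The authors deposited scanner files whose values are intensities, per the file headers, made with Feature Extraction 10.7 per the submitters' processing notes, with probe positions on mm9. The processed intensity of each spot is background-corrected by that software, per the file headers. The authors' deposited table of log2 values matched quantile-normalised, median-centred log2 intensities of the same arrays (lowest correlation 0.99977) and served as an alternative.

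Each array's log2 processed intensity was set relative to its 75th percentile over gene probes. Spots marked non-uniform were dropped and spots of a probe averaged. Probes were named by accession (27461), symbol (3538), synonym (404) or the name in the files (1525, and 53 for the listed genes), and 6448 had no name. The brightest tested probe on average stood for a gene. One model over the 24 arrays was fitted with limma 3.58.1 (R 4.3.3), with the Benjamini-Hochberg adjustment over 9444 genes, and was tested on simulated data. All 11 comparisons came from that fit: day 4 (the mean of the 4 sites) and every single site against the graft, and 6 pairs of sites. Where a probe was not well above background on any array of 1 group, the fold is a bound: the bright group's mean over, on each array of the dim group, the higher of the lowest detected signal and the probe's own.

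Between 28.6% of gene probes (mean in lung) and 31.6% (mean in liver) were above background, and the number of arrays limits the precision. Alternatives changed the background correction (normexp, offset 50), the scaling, the filter, the probe rule, the slide term, array weights and the arrays used. The members and all lists were chosen with earlier results of these data known. All members were described, and of the other lists up to 6 called genes at day 4 and up to 4 between sites, by smallest adjusted p, plus receptor chains and kinases. Some items are not reported here.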

Additional observations from a re-analysis of the deposited data

Results flagged for a closer look

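Of 150 groups of 4 or 5 arrays, 1 for each tested gene and group, 10 held an array far from the others by Dixon's criterion, and chance gives about 1 in 20. Graft 3 stood above the other graft arrays for Usp18 (2.08, the others 0.097 to 0.43), Dhx58 (-0.13, the others -2.69 to -2.42) and Xaf1 (-0.88, the others -2.71 to -2.53). Graft 2 stood above them for Isg20 (3.25, the others 2.61 to 2.68). In lung, Mx2 was high on lung 2 (-0.76, the others -2.84 to -2.35), Irf9 was high on lung 5 (3.04, the others 2.08 to 2.32) and Parp14 was low on lung 4 (-2.02, the others 1.08 to 1.78). In liver, Ifit3 was low on liver 2 (-3.16, the others -1.30 to -0.65) and Cmpk2 was low on liver 5 (-0.44, the others 0.84 to 1.11). In blood, Ifitm2 was low on blood 5 (-0.18, the others 0.90 to 1.15). These are log2 signals relative to each array's 75th percentile.

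The changes from the graft differed between intestine and blood for 5 members, by limma's test of that difference. The log2 difference of the changes was -2.68 for Trim21 (adjusted p = 0.0069), -1.15 for Samhd1 (adjusted p = 0.0325), -1.21 for Adar (adjusted p = 0.0394), -0.88 for Cmpk2 (adjusted p = 0.0425) and 1.16 for Isg15 (adjusted p = 0.0465). The graft cancels in it, so it equals the difference of the sites given above.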

How the results depend on the processing

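In the alternatives run, 0 members changed direction where called. Of the 15 calls at day 4, 11 held in every alternative, and Ifi35, Parp9, Rsad2 and Usp18 lost theirs in 1, 6, 13 and 22. Trim25 is among the 11, but no alternative used its second tested probe alone. That probe differed in the opposite direction (log2 difference 0.85), so these alternatives could not show a reversal by probe. The Oasl2 difference ran from -2.95 to -0.999 and that of Trim25 from -2.60 to -0.60. With the filter set to all 24 arrays, 13 members were left to test, and 5 were called at day 4, and against the graft blood had 5, liver 6, lung 6 and intestine 4. Centring on the median of detected probes called 13 in intestine against graft. In intestine against blood, where 5 were called, quantile normalisation and the deposited table called 3 each, slide as a fixed term 2, either scaling on detected probes, no filter, only the groups compared, or leaving out lung 4 and intestine 4 called 1, and array weights called 14. Leaving out intestine 1 and intestine 2, chosen after seeing the data, called 0. Array weights called 1 in lung against blood, 1 in lung against liver, 14 in intestine against liver and 7 in intestine against lung, where quantile normalisation and the deposited table called 2 each. Leaving out 1 array gave 12 to 16 calls at day 4, 12 to 17 for blood, 11 to 16 for liver, 8 to 14 for lung and 6 to 10 for intestine against the graft, 1 to 12 in intestine against blood, 0 to 7 in intestine against liver, 0 to 3 in intestine against lung and 0 to 1 in lung against blood. The cause of these changes was not tested. Same-numbered day 4 arrays share a slide, and their deviations correlated from -0.37 to 0.56 (30 pairs, median 0.145). Other day 4 pairs from different sites ran from -0.63 to 0.65 (120 pairs, median -0.045). The main fit held no slide or replicate term, and fits with such terms served as alternatives. With a replicate block the calls were 16 at day 4, 16 for blood, 16 for liver, 9 for lung and 7 for intestine against the graft, and 5 in intestine against blood, where Cmpk2 (adjusted p = 0.0548) and Isg15 (adjusted p = 0.0635) were not called and Ifitm1 (adjusted p = 0.0329) and Parp14 (adjusted p = 0.0471) were. Signals near background limit Oasl2, Mx2, Rsad2, Ifit3, Usp18, Irf7, Dhx58, Xaf1 and Ifih1, and in intestine Trim21 and Cmpk2.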
